A study of Mus musculus with 8 samples.

Results

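The transcription factor subunit Hif1a and 8 genes tied to it were examined for H3K27ac, the acetylated form of lysine 27 on histone H3 that marks promoters and enhancers in use. The other members were the glycolysis genes Hk1, Hk2, Pkm, Ldha, Slc2a1 and Pfkfb3, and the oxygen-response genes Egln3 and Vegfa. Members were chosen by symbol: every region that the deposited table assigns to one of these 9 symbols was taken. The rule itself uses no measured value, but the 9 symbols were proposed with earlier results of these data known. This gave 154 of the 129304 regions in the table and 9 of its 18707 gene symbols. The table assigns a region to the gene with the nearest annotated start site, which need not be the gene that the region regulates.

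H3K27ac was measured by chromatin immunoprecipitation and sequencing in nuclei from perfused, frozen hemibrains of C57BL/6 mice aged 2 years. One group was wild type (WT) and the other, GrnKO, lacked Grn, the gene for progranulin, a secreted protein that is carried to lysosomes. No other allele or treatment is named for either group, and the knockout is not described as restricted to a cell type. Nuclei were fixed with formaldehyde and sorted as positive for PU.1, a transcription factor of myeloid cells, and negative for OLIG2 and NEUN, which mark oligodendrocyte-lineage and neuronal nuclei. Each genotype had 2 replicates, each pooled from 2 mice. An H3K27ac library and an input, which is chromatin sequenced without immunoprecipitation, were made from each pool.

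Hypoxia-inducible factor 1 is a pair of proteins, and Hif1a encodes the subunit whose stability depends on oxygen. When oxygen is low, or when inflammatory signals stabilise the protein, it binds the core letters RCGTG in DNA and raises transcription of glucose transporters and glycolytic enzymes. Activated microglia and macrophages are known for shifting towards glycolysis, and Hif1a is known to take part in that shift. Prolyl hydroxylases such as the product of Egln3 mark the HIF1A protein for degradation, so this family contains both targets and inhibitors of the factor.

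Values are scaled tags: tags in a region of 800 bp at a library total of 10000000 tags, divided by the trimmed-mean (TMM) factor of the library. The H3K27ac libraries held 15491642.5 to 20030832 tags and the inputs 4078179 to 14415969 tags, and 3 tags, taken as the floor, equal 1.38 to 2.35 scaled tags. WT replicate 1 stood apart, with 49.4% of its tags in the listed regions against 63.3% to 65.7% in the other 3 H3K27ac libraries. Grn, the deleted gene, summed to 2291 and 1871 scaled tags in WT and to 157 and 162 in GrnKO, with 0 in both GrnKO libraries at its start-site region, which matches the labels. Defining microglial genes carried the mark at a mean of 178 to 239 scaled tags per region in the 4 libraries. Summed over 8 such markers, H3K27ac was 50479 and 55219 in WT and 41078 and 43566 in GrnKO, and 6 of the 8 were lower by limma at an adjusted p under 0.05. Markers of other cells also moved, among them oligodendrocytes and neurons, whose nuclei the OLIG2 and NEUN gates were set to remove. Border macrophage markers summed to 1084 and 1054 in WT and to 1406 and 1318 in GrnKO, with 1 of 6 called, Ms4a7, which was higher at 550 and 420 against 170 and 147. Monocyte and neutrophil markers summed to 457 and 438 in WT and to 361 and 287 in GrnKO, with S100a8 called higher, Ccr2 called lower and S100a9 at 0 in 3 of 4 libraries. Oligodendrocyte markers summed to 1988 and 1996 in WT and to 2502 and 2644 in GrnKO: Mbp was called higher, Mog was called lower, and Mobp was at 0 to 3.14. Neuronal markers summed to 219 and 272 in WT and to 178 and 151 in GrnKO, with Syt1 called lower and Gad1 and Gad2 at 0 to 4.71. Astrocyte markers were at 4.64 to 5.98 scaled tags per region, with none of the 4 tested called. The part of these cells in the results was not tested. In a bulk sample, fewer cells of a type and less H3K27ac per cell cannot be told apart.

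Promoter sequences show where the letters that HIF1 binds lie at the genes described here. The search used ACGTG and GCGTG on both strands, over the 250 bases before each RefSeq start (RefSeq promoter table, build GRCm38.p6, whose coordinates are those of mm10). All 9 genes matched that table by symbol, with 14 start sites, and 11 of the 14 windows held at least 1 match. Over all 32851 promoters in the table, 38.6% held a match, 16.7% held 2 or more and 6.58% held 3 or more. Both searched cores contain CG, so matches depend on the base content of a window. The member windows were not compared with promoters of like base content, so these shares do not measure enrichment. The palindrome CACGTG, which counts as a match on each strand, was in 6.02% of all promoters. Of the 4 windows printed, those of Hif1a, Pkm and Pfkfb3 lie in regions where H3K27ac was higher in GrnKO, and that of Ldha lies in a region with no call. The Pfkfb3 window also lies inside an overlapping region with more mark and no call. The Pkm, Pfkfb3 and Ldha windows were picked after their values were seen. Each runs 5′ to 3′ on the strand of the gene, with the searched letters in capitals: Hif1a at chr12:73907617-73907866 (plus strand), the second start site of Pkm at chr9:59656977-59657226 (plus), the downstream start site of Pfkfb3 at chr2:11502091-11502340 (minus), and the first start site of Ldha at chr7:46845554-46845803 (plus).
Hif1a: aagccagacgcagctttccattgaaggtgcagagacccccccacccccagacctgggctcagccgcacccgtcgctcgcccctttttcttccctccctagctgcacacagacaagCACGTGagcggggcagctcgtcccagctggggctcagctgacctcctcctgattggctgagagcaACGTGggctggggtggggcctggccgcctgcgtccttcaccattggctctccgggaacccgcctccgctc
Pkm: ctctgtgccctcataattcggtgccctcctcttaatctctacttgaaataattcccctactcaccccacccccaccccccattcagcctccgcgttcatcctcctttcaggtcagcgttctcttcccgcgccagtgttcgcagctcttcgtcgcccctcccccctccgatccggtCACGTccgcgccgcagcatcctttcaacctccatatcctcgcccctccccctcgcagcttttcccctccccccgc
Pfkfb3: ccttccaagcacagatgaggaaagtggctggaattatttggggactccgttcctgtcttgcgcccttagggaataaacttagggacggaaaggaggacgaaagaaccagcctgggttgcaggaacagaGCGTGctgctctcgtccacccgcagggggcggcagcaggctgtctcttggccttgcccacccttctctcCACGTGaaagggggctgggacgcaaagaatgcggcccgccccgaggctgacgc
Ldha: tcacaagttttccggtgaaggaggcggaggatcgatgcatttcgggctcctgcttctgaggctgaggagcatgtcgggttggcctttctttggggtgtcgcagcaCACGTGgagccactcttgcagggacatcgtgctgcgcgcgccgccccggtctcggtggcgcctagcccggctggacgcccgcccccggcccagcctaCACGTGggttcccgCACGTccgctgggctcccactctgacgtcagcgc
The Hif1a window held 3 matches, 2 of them in 1 CACGTG, and the Ldha window held 5, 4 of them in 2 CACGTG. The Pfkfb3 window held 3 and the Pkm window 1. The first start site of Pkm, the upstream start site of Hk1 and a start site of Vegfa held none of these letters in their windows. A match is a run of letters and not a measured binding site.

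Across the members, H3K27ac was higher in GrnKO at 18 regions, lower at 1 and not called at 100 of the 119 regions that passed the filter on low tags. These 18 regions were 9 at Hif1a, 2 each at Pkm, Slc2a1, Pfkfb3 and Egln3, and 1 at Ldha. The lower region was at Hk2, and no region of Hk1 or Vegfa was called. Calls used limma with an adjusted p under 0.05 over all 80728 regions tested, of which 9.72% were called, 6.8% as higher and 2.92% as lower. The other 35 member regions were too low to test, and none of them exceeded 10.4 scaled tags in any H3K27ac library.

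Both GrnKO libraries lay above both WT libraries at 54 of the 119 tested member regions, and both lay below at 16. Over all tested regions the groups were apart at 52.7%, with GrnKO above at 27% and below at 25.6%. The median log2 difference, GrnKO minus WT, was 0.23 over the tested member regions and -0.0020 over all tested regions. Within 1000 bp of a start site, 4 of 25 tested member regions were higher, against 3.57% of all such regions. Farther out, 14 of 94 were higher and 1 was lower, against 7.99% and 3.4% of all such regions. Inputs at the 19 called regions were 0 in 55 of 76 values, and the highest was 85.8 scaled tags. Some member regions overlap on the genome and so share tags. With overlapping regions reduced to the one with the highest mean, 13 of these calls remained, 12 higher and 1 lower among 83 tested member regions, against 5601 calls, 3932 higher and 1669 lower, among all 55890 tested regions reduced in the same way.

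Summed over all regions of a gene, Hif1a, Pkm, Slc2a1 and Egln3 were higher in GrnKO, and Hk1, Hk2, Ldha, Pfkfb3 and Vegfa were not called. Over all 15380 genes tested in the same way, 14.5% were called, 8.6% as higher and 5.88% as lower. The median log2 difference was 0.53 over the 9 members and -0.05 over all genes. Both GrnKO libraries lay above both WT libraries for 6 members, below for Hk2, and across them for Hk1 and Vegfa, against 25.4% of all genes above and 29.4% below (54.8% in either direction).

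**Figure D1:**
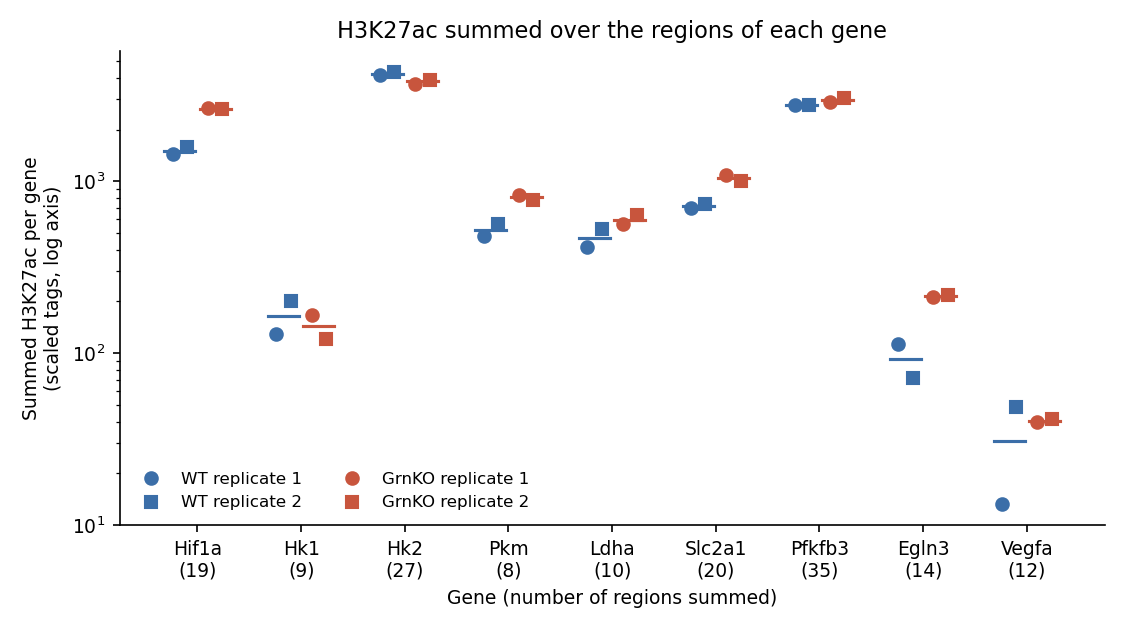
Summed H3K27ac (scaled tags, log axis) of the 9 genes in the 4 H3K27ac libraries, with WT in blue, GrnKO in red, circles for replicate 1, squares for replicate 2 and a bar at each group mean. At Hif1a, Pkm, Slc2a1 and Egln3 the red points lie clear above the blue ones, and at Hk1 and Vegfa the groups cross.

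Per region, to allow for the number of regions, WT levels ran from Hk2 at 156 ± 4.41 scaled tags (SD, n = 2) down to Vegfa at 2.58 ± 2.09. Hif1a at 79.2 ± 5.16 and Pfkfb3 at 79.0 ± 0.017 did not differ beyond their spread in WT. Pkm followed at 65.5 ± 7.28, Ldha at 47.0 ± 8.15, Slc2a1 at 36.1 ± 1.26, Hk1 at 18.3 ± 5.61 and Egln3 at 6.59 ± 2.10. In GrnKO, Hif1a at 139 ± 0.671 reached the level of Hk2 at 141 ± 5.33, and the 2 did not differ beyond their spread. Pkm at 101 ± 3.99 then stood above Pfkfb3 at 85.2 ± 3.55. Egln3 at 15.3 ± 0.280 and Hk1 at 15.9 ± 3.52 were within their spread of each other.

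Hif1a summed to 1436 and 1575 scaled tags in the WT replicates and to 2655 and 2637 in the GrnKO replicates, over 19 regions. Both GrnKO libraries were well above both WT libraries. The ratio of means was 1.76, and the log2 difference was 0.82 (SE 0.09, limma adjusted p = 6.39e-05). Of 16 tested Hif1a regions, 9 were higher, none was lower, and 15 had a positive log2 difference. Input sums at Hif1a were 68.4 to 85.8 scaled tags in the 4 pools.

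The Hif1a regions were split by distance into a far upstream cluster and the rest. The cluster was 10 regions from 107 to 136 kb upstream of the start site to which the table refers them. It summed to 944 and 1180 scaled tags in WT and to 2025 and 2010 in GrnKO, a ratio of 1.90, and it held 70.6% of the WT signal of the gene. Of its 10 regions, 7 were higher, and these 7 lie between genes, just past the end of the neighbouring Prkch. The 9 regions within 100 kb, of which 5 lie between genes and the others at the start sites or in introns, summed to 492 and 394 in WT and to 630 and 628 in GrnKO, a ratio of 1.42. The Hif1a sum without the far cluster was still called, with a log2 difference of 0.51 (limma adjusted p = 0.0269).

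**Figure D2:**
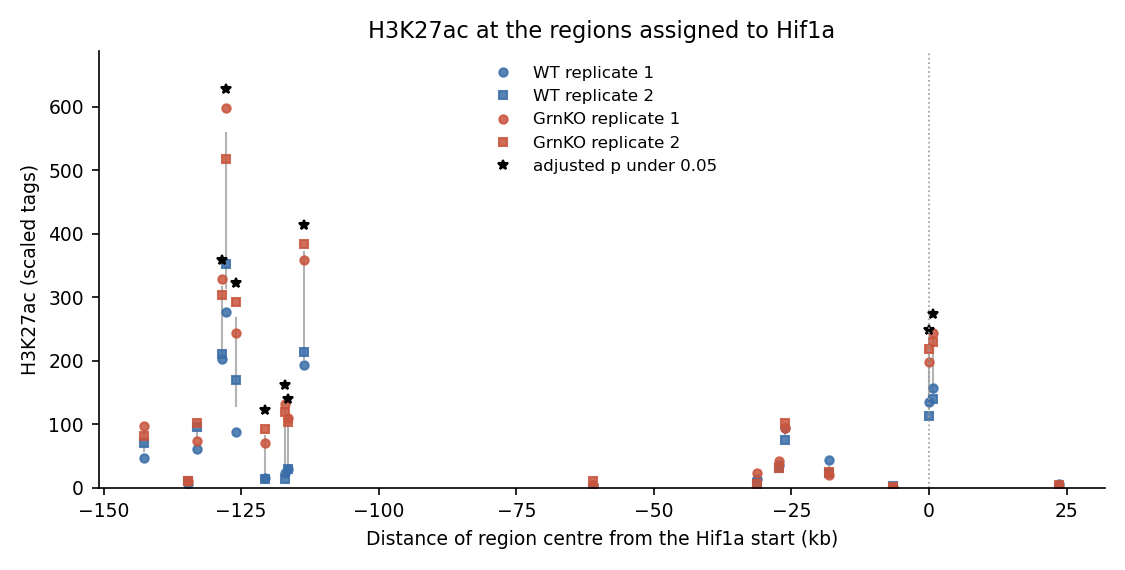
H3K27ac (scaled tags) in the 19 Hif1a regions against distance in kb from the RefSeq start of Hif1a, with WT libraries in blue, GrnKO in red, a gray line between the group means and stars for an adjusted p under 0.05. Stars mark 7 regions far upstream and 2 at the start site; distances here run to the RefSeq start and are longer than those of the table, which refers the upstream regions to a start farther upstream.

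The strongest mark in the cluster was at chr12:73779717-73780517, with 278 and 353 scaled tags in WT and 599 and 519 in GrnKO. Its log2 difference was 0.83 (SE 0.14, limma adjusted p = 9.69e-04). The overlapping region at chr12:73779020-73779820 had 203 and 211 in WT, against 329 and 304 in GrnKO. The groups did not overlap at either region.

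The largest ratios were at 3 regions where WT levels were low. At chr12:73790472-73791272, 110 kb upstream, WT had 23.1 and 13.6 scaled tags and GrnKO had 131 and 120.2. This is a ratio of means of 6.85, with a log2 difference of 2.75 (SE 0.32, limma adjusted p = 3.13e-05), and all 4 inputs were at 0. The region at chr12:73790979-73791779 overlaps it and had 30.1 and 29.3 in WT and 109 and 104 in GrnKO. WT replicate 1 and GrnKO replicate 2 also had input there, at 85.8 and 36.7 scaled tags. At chr12:73786743-73787543 WT had 15.6 and 14.4 and GrnKO 70.7 and 92.3, a ratio of 5.42. These 3 regions had little mark in WT and clear mark in both GrnKO pools.

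The cluster's other called regions had more mark in WT and smaller ratios. At chr12:73781563-73782363 WT had 88.4 and 169 scaled tags and GrnKO 244 and 292, a ratio of 2.08 with a wide gap between the WT replicates. At chr12:73793839-73794639 WT had 193 and 213 and GrnKO 359 and 384, a ratio of 1.83. The 3 regions farthest upstream, inside an intron of Prkch, were not called.

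The Hif1a promoter region at chr12:73907404-73908204, which contains the window printed above with its 3 matches, had 135 and 113 scaled tags in WT, against 199 and 218 in GrnKO. The groups did not overlap, and the log2 difference was 0.75 (SE 0.18, limma adjusted p = 0.0144). The region at chr12:73908150-73908950, in intron 1, had 158 and 140.4 in WT and 244 and 230.2 in GrnKO, with a log2 difference of 0.67 (SE 0.17, limma adjusted p = 0.0181). A region at the other annotated start of Hif1a, at chr12:73900954-73901754, held 0 to 3.15 scaled tags in the 4 libraries and was not tested. The mark was thus at the start site printed above and near the floor at the other one.

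Prkch, a protein kinase C gene whose end lies nearest to the cluster, was also higher, with 1332 and 1324 scaled tags in WT and 1976 and 1945 in GrnKO. Its log2 difference was 0.56 (limma adjusted p = 0.00114). The region nearest its start, at chr12:73584322-73585122, had 74.7 and 69.9 in WT and 95.9 and 69.9 in GrnKO and was not called. Some regions in its introns were called higher, and no Prkch region was called lower. At chr12:73728561-73729361 WT had 35.2 and 45.6 and GrnKO 167 and 128 (log2 difference 1.84, limma adjusted p = 1.54e-04). Whether the cluster acts on Hif1a, on Prkch or on neither was not tested. Snapc1, the next gene beyond Hif1a, had a log2 difference of 0.58 and was not called (limma adjusted p = 0.161).

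Slc2a1 encodes GLUT1, a widely expressed glucose transporter and a known HIF1 target. Its sum was 704 and 739 scaled tags in WT and 1081 and 1003 in GrnKO, over 20 regions. The groups did not overlap, the ratio of means was 1.44, and the log2 difference was 0.53 (SE 0.11, limma adjusted p = 0.00616). Of 16 tested regions, 14 had a positive log2 difference and 2 were called.

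By position, the introns of Slc2a1 and its start site gave unlike ratios. The 6 regions from 10.3 to 18.7 kb into the gene summed to 463 and 513 scaled tags in WT and to 778 and 773 in GrnKO, a ratio of 1.59. The 2 regions within 1000 bp of the start summed to 159 and 156 in WT and to 180.5 and 132 in GrnKO, a ratio of 0.995. The difference between these ratios was not tested. Both called regions are in intron 2 and overlap. At chr4:119126704-119127504 WT had 118 and 138 and GrnKO 188 and 202, with a log2 difference of 0.61 (limma adjusted p = 0.0437). At chr4:119127012-119127812 WT had 82.5 and 102 and GrnKO 152 and 141, with a log2 difference of 0.68 (limma adjusted p = 0.0483). Both calls were lost without the filter on low tags, with DESeq2 and with edgeR on read ends. The region nearest the start, at chr4:119108268-119109068, had 51.6 and 62.6 in WT and 65.3 and 50.3 in GrnKO. Its groups crossed.

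Hk1 and Hk2 encode hexokinases, which trap glucose in the cell as glucose 6-phosphate, Hk2 being the isoform known to respond to HIF1. Hk2 summed to 4139 and 4307 scaled tags in WT and to 3707 and 3911 in GrnKO, over 27 regions. Both GrnKO libraries were below both WT libraries, and the log2 difference was -0.15 (SE 0.07, limma adjusted p = 0.222), which is no call. Of its 24 tested regions, 9 had both GrnKO libraries below and 3 had both above. Hk2 thus carried the highest H3K27ac per region of the members in WT, with no call on its sum.

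Most of the Hk2 signal was far from the gene. The 8 regions from 23.02 to 50.0 kb upstream held 66.6% of the WT sum, with 2809 and 2813 scaled tags in WT and 2321 and 2514 in GrnKO, a ratio of 0.860. The farthest of them, at chr6:82824052-82824852, was the only member region called lower. It had 495 and 506 in WT and 319.6 and 409 in GrnKO, with a log2 difference of -0.47 (SE 0.14, limma adjusted p = 0.0378). The call was lost without TMM scaling, without the filter on low tags, without GrnKO replicate 1 and with edgeR on read ends. The region with the highest mean of all members, at chr6:82797674-82798474, had 732 and 744 in WT and 651 and 656 in GrnKO and was not called. The start-site region at chr6:82774157-82774957 had 101 and 103 in WT and 117 and 119 in GrnKO, a log2 difference of 0.21 (SE 0.21) with no call.

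Hk1 summed to 129 and 200.1 scaled tags in WT and to 166 and 121 in GrnKO, over 9 regions. The groups crossed, with a log2 difference of -0.18 (SE 0.25, limma adjusted p = 0.711). Its highest region, at chr10:62339861-62340661 by the downstream start site, had 51.2 and 78.0 in WT and 84.6 and 60.9 in GrnKO. None of its 6 tested regions was called. Its input sums were 52.7 and 32.1 scaled tags in the WT pools and 0.69 and 62.2 in the GrnKO pools.

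Pfkfb3 encodes an enzyme that makes fructose 2,6-bisphosphate, the activator of the phosphofructokinase step. Its sum was 2765 and 2766 scaled tags in WT and 2894 and 3070 in GrnKO, over 35 regions. Both GrnKO libraries lay above WT by little, with a log2 difference of 0.11 (SE 0.08, limma adjusted p = 0.438). Of 32 tested regions, 11 had both GrnKO libraries above, 4 had both below, and 2 were called.

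Both called Pfkfb3 regions were higher. The region at chr2:11502060-11502860, in the promoter of the downstream start site and containing the window printed above, had 49.3 and 63.1 scaled tags in WT and 115 and 119.5 in GrnKO. Its log2 difference was 1.06 (SE 0.24, limma adjusted p = 0.00880). The overlapping region at the start itself, chr2:11501666-11502466, had 200.2 and 189 in WT and 219 and 237 in GrnKO and was not called. The called region lies on the upstream flank of that start. At chr2:11512844-11513644, 11.2 kb upstream of that start, WT had 61.4 and 84.3 and GrnKO 148 and 178, with a log2 difference of 1.16 (SE 0.23, limma adjusted p = 0.00277). The highest region, chr2:11501011-11501811, had 282 and 235 in WT and 262 and 293 in GrnKO. Its groups crossed.

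Pkm encodes pyruvate kinase of muscle and most other tissues, which makes pyruvate in the last step of glycolysis. Its sum was 483 and 565 scaled tags in WT and 828 and 783 in GrnKO, over 8 regions. The groups did not overlap, the ratio of means was 1.54, and the log2 difference was 0.62 (SE 0.13, limma adjusted p = 0.00508). Inputs were at 0 in 3 of the 4 pools and at 25.7 scaled tags in GrnKO replicate 1.

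At Pkm too, the ratio at the first start site and that in intron 1 were unlike. The 2 regions at that start summed to 213 and 239 scaled tags in WT and to 251 and 230.2 in GrnKO, a ratio of 1.07. The 4 regions of intron 1 summed to 266 and 323 in WT and to 575 and 551 in GrnKO, a ratio of 1.91, and the difference between these ratios was not tested. Both called regions are in this intron, overlap each other and cover the second start site. At chr9:59656809-59657609 WT had 104 and 109.7 and GrnKO 214 and 200.5, with a log2 difference of 0.95 (SE 0.18, limma adjusted p = 0.00282). At chr9:59657195-59657995 WT had 79.0 and 78.8 and GrnKO 186 and 173, with a log2 difference of 1.18 (SE 0.20, limma adjusted p = 9.88e-04). The region nearest the first start, at chr9:59656059-59656859, had 113 and 135 in WT and 143 and 138 in GrnKO and was not called.

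**Figure D3:**
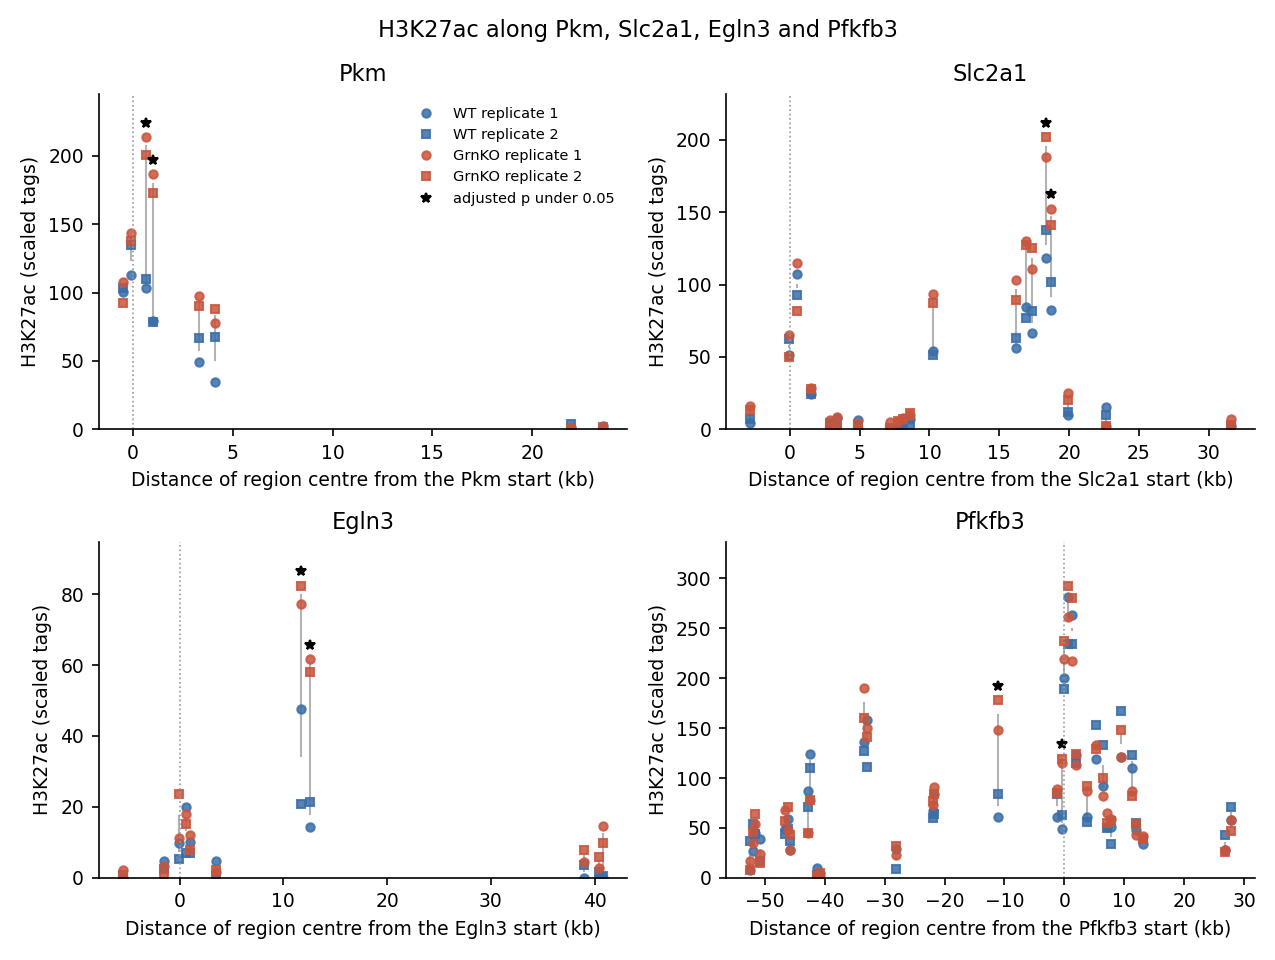
H3K27ac (scaled tags) by library against distance in kb from the start site at Pkm, Slc2a1, Egln3 and Pfkfb3, with WT in blue, GrnKO in red, gray lines between group means and stars for an adjusted p under 0.05; 3 Egln3 regions and 1 Pfkfb3 region beyond the axes are not drawn. The starred regions lie in introns at Pkm, Slc2a1 and Egln3, and at Pfkfb3 on the upstream flank of the downstream start and 11.2 kb beyond it.

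Ldha encodes the lactate dehydrogenase subunit that favours lactate. Its sum was 412 and 527 scaled tags in WT and 564 and 634 in GrnKO, over 10 regions. Both GrnKO libraries lay above both WT libraries, but the log2 difference of 0.36 (SE 0.15, limma adjusted p = 0.135) did not pass. The start-site region at chr7:46845366-46846166, around the window with 5 matches printed above, had 89.9 and 107 in WT and 116 and 119.5 in GrnKO and was not called. The highest region, chr7:46845954-46846754, had 120.1 and 132 in WT and 141 and 166 in GrnKO, also without a call. At chr7:46846653-46847453, 29 bp from an annotated start, WT had 28.2 and 18.6 and GrnKO had 18.95 and 20.1, so the groups crossed, and the log2 difference of -0.22 (SE 0.43) was not called. The 1 called region, chr7:46830595-46831395, lies 14.8 kb upstream and had 56.7 and 78.0 in WT and 111 and 120.2 in GrnKO. Its log2 difference was 0.78 (SE 0.24, limma adjusted p = 0.0456), close to the threshold, and the call was lost without the filter on low tags and with edgeR or DESeq2.

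Egln3 encodes PHD3, a prolyl hydroxylase that is both a known HIF1 target and an inhibitor of the factor. Its sum was 113 and 71.5 scaled tags in WT and 212 and 217 in GrnKO, over 14 regions. The ratio of means was 2.32, and the log2 difference of 1.24 (SE 0.24, limma adjusted p = 0.00341) was the largest of the 9 gene sums. Levels were low, and inputs summed to 34.3 to 63.1 scaled tags. With input subtracted, the log2 difference was 2.64, a value with no call. All 6 tested regions had a positive log2 difference.

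Both called Egln3 regions are in intron 1. At chr12:54190933-54191733, 12.5 kb from the start, WT had 14.5 and 21.5 scaled tags and GrnKO had 61.7 and 58.1, a ratio of 3.33 (log2 difference 1.71, SE 0.36, limma adjusted p = 0.00499). At chr12:54191772-54192572 WT had 47.7 and 20.95 and GrnKO 77.2 and 82.4, with a log2 difference of 1.30 (SE 0.34, limma adjusted p = 0.0215) and a wide gap between the WT replicates. The start-site region, chr12:54203508-54204308, had 9.78 and 5.24 in WT and 11.3 and 23.8 in GrnKO and was not called.

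Vegfa, the vascular growth factor and a classical HIF1 target, had little H3K27ac in these nuclei. Its 12 regions summed to 13.3 and 48.7 scaled tags in WT and to 39.6 and 41.3 in GrnKO, with inputs of 0 to 27.03. The groups crossed, with a log2 difference of 0.64 (SE 0.51, limma adjusted p = 0.481). Only 3 regions passed the filter, and the one with the highest mean, chr17:46031553-46032353, had 4.69 and 11 in WT, against 2.83 and 9.22 in GrnKO. For the sum, the WT replicates differed by more than the group means did.

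**Figure D4:**
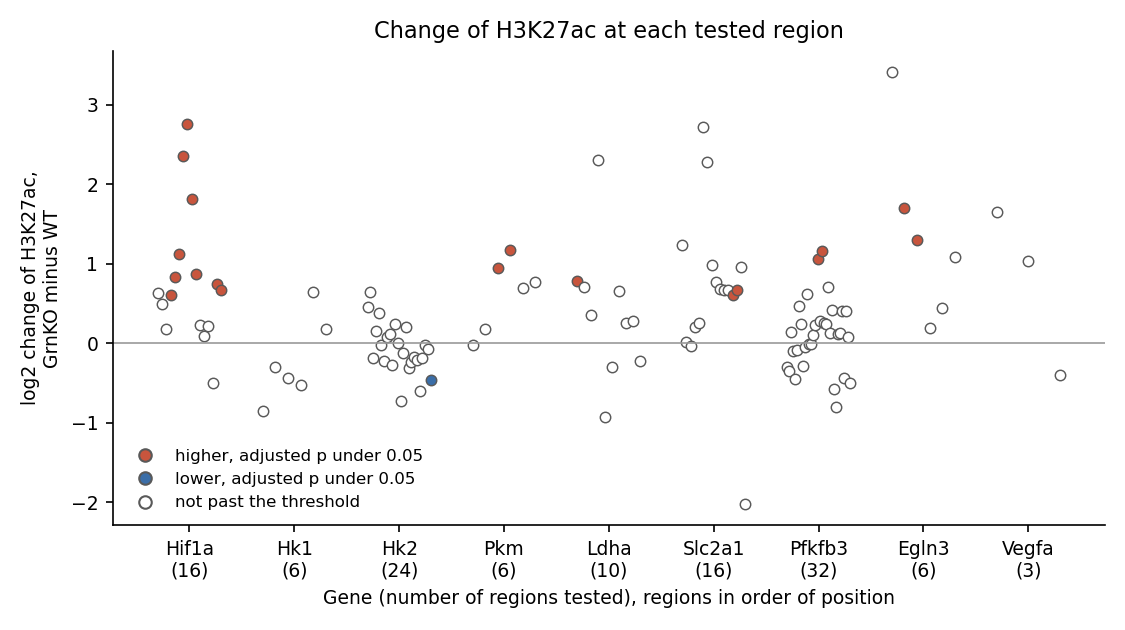
Log2 difference (GrnKO minus WT) of each tested region by gene, in order of position, with filled points for an adjusted p under 0.05. Hif1a holds 9 of the 18 higher regions and Hk2 the single lower one, while Hk1 and Vegfa have none.

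WT replicate 1, the library that stood apart, touched these results as follows. Without it, the same test called 24 member regions, 19 higher and 5 lower, and 4 member genes, all higher. That fit called 9.85% of all tested regions higher and 5.16% lower, and 11.7% of all genes higher and 8.25% lower. The log2 differences of the sums were then 0.75 for Hif1a, 0.52 for Pkm, 0.50 for Slc2a1 and 1.58 for Egln3. Ldha fell to 0.19 and Vegfa turned to -0.26, neither called. Without GrnKO replicate 1, Pkm (adjusted p = 0.0571) and Slc2a1 (adjusted p = 0.116) lost their calls in the limma test, while Hif1a and Egln3 kept theirs. Without GrnKO replicate 1 or 2, 8 and 9 member regions were called, against 2.4% and 3.45% of all tested regions, and the promoter and intron 1 regions of Hif1a lost their calls in both fits. The called regions of Ldha, Slc2a1 and Egln3, the Pfkfb3 promoter region and the Hif1a region at chr12:73779020-73779820 were lost in both fits too. The Pkm region at chr9:59656809-59657609 was lost without GrnKO replicate 1 and the Pfkfb3 region 11.2 kb upstream without GrnKO replicate 2. The called regions of Ldha and Slc2a1 were also lost without WT replicate 1, and the Egln3 region at chr12:54191772-54192572 without WT replicate 2. Without WT replicate 2, 28 member regions and 6 member genes were called, against 15.4% of all tested regions and 22% of all genes, the 2 added genes being Ldha (log2 difference 0.56) and Vegfa (1.56). In these fits the lone library of a genotype is assumed to vary like the other genotype.

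The rest of the glycolysis pathway did not share one direction. Of 33 listed genes around the members, 31 were tested, and 5 were higher, 3 lower and 23 not called, which is 16.1% higher and 9.68% lower. Of all genes tested, 8.6% were higher and 5.88% lower. Without GrnKO replicate 1, 1 listed gene was higher and 0 were lower, without GrnKO replicate 2, 1 was higher and 3 were lower, without WT replicate 1, 6 and 5, and without WT replicate 2, 8 and 3. In the same order, these fits called 4.59%, 5.14%, 11.7% and 12.6% of all genes higher and 1.72%, 2.86%, 8.25% and 9.47% lower. From regions within 1000 bp of a start, 1 of 25 tested was higher and 1 lower, against 3.58% and 1.66% of all genes. Summed over all regions, the 31 tested genes had a median log2 difference of 0.03, against -0.05 for all genes. Aldoa, the aldolase of most tissues, rose from 641 and 742 scaled tags in WT to 997 and 1054 in GrnKO (log2 difference 0.57, limma adjusted p = 0.00542). Pfkl, a phosphofructokinase subunit, rose from 282 and 329 to 414 and 461 (0.52, adjusted p = 0.0370). Slc2a6, a transporter of the glucose transporter family, rose from 111 and 83.0 to 204 and 145 (0.83, adjusted p = 0.0356), with an input of 165.5 in WT replicate 1. Tigar, a fructose bisphosphatase that opposes glycolysis, rose from 14.5 and 6.02 to 46.7 and 34.4 (1.98, adjusted p = 0.0226). Eno2, an enolase typical of neurons, went from 2.35 and 2.10 to 18.7 and 31.8 (2.98, adjusted p = 0.0139), with WT values at the floor.

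Among the lower genes of the list were a sugar transporter and an enzyme. Slc2a5, a fructose transporter known as a microglial gene, fell from 691 and 595 scaled tags to 414 and 439 (log2 difference -0.59, limma adjusted p = 0.0104). Pgam2, the muscle phosphoglycerate mutase, fell from 32.8 and 13.6 to 3.67 and 2.54 (-2.45, adjusted p = 0.0403). Slc2a5 lost its call without TMM scaling. Calls in this list were sensitive to single libraries: without GrnKO replicate 1, Slc2a5, Pgam2, Pfkl, Slc2a6, Tigar and Eno2 were not called, and without GrnKO replicate 2, Aldoa, Pgam2, Pfkl, Tigar and Eno2 were not. Pfkl and Pgam2 were also lost without WT replicate 1.

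Of 43 symbols listed for the HIF pathway and its targets, 39 were tested, and 10 were higher, 1 lower and 28 not called, which is 25.6% higher and 2.56% lower, against 8.6% and 5.88% of all genes. Without GrnKO replicate 1, 6 were higher and 0 lower, without GrnKO replicate 2, 5 and 2, without WT replicate 1, 12 and 1, and without WT replicate 2, 12 and 3. The shares of all genes in these fits are those given above, from 4.59% to 12.6% higher and from 1.72% to 9.47% lower. From regions within 1000 bp of a start, 3 of 35 tested were higher and 0 lower, against 3.58% and 1.66% of all genes. Summed over all regions, the 39 tested genes had a median log2 difference of 0.12. Cxcr4, a chemokine receptor, had 569 and 396 scaled tags in WT and 1540.4 and 1485 in GrnKO (log2 difference 1.67, limma adjusted p = 1.38e-05). Bhlhe40, a transcription factor, had 540 and 509 in WT and 1092 and 968 in GrnKO (0.97, adjusted p = 1.63e-04). Plin2, a lipid droplet coat protein, had 345 and 227 in WT and 775 and 614 in GrnKO (1.30, adjusted p = 5.22e-04). The groups of these 3 genes did not overlap.

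Flt1, a receptor for vascular growth factors, had 495 and 425 scaled tags in WT and 877 and 896 in GrnKO (log2 difference 0.95, limma adjusted p = 2.82e-04). Flt1 is also an endothelial marker, and the 5 such markers found in the table, of 6 listed, summed to 1231 and 1251 in WT and to 1738 and 1882 in GrnKO. Within that list Kdr was not called, Cldn5 stayed at 21.1 to 24.2 scaled tags and Slco1c1 at 0 to 7.04, and their part in the Flt1 result was not tested. Epas1, which encodes the related subunit HIF2A, had 95.0 and 81.7 in WT and 226 and 208 in GrnKO (1.29, adjusted p = 0.00107). Its inputs were as high as 222 scaled tags, and with input subtracted the log2 difference was -0.53. Hif3a, the gene of another HIF subunit, was the 1 lower gene, with 1160 and 866 in WT and 585 and 753 in GrnKO (-0.59, adjusted p = 0.0208), a call lost without TMM scaling, without GrnKO replicate 1 and from regions within 1000 bp of a start.

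**Figure D5:**
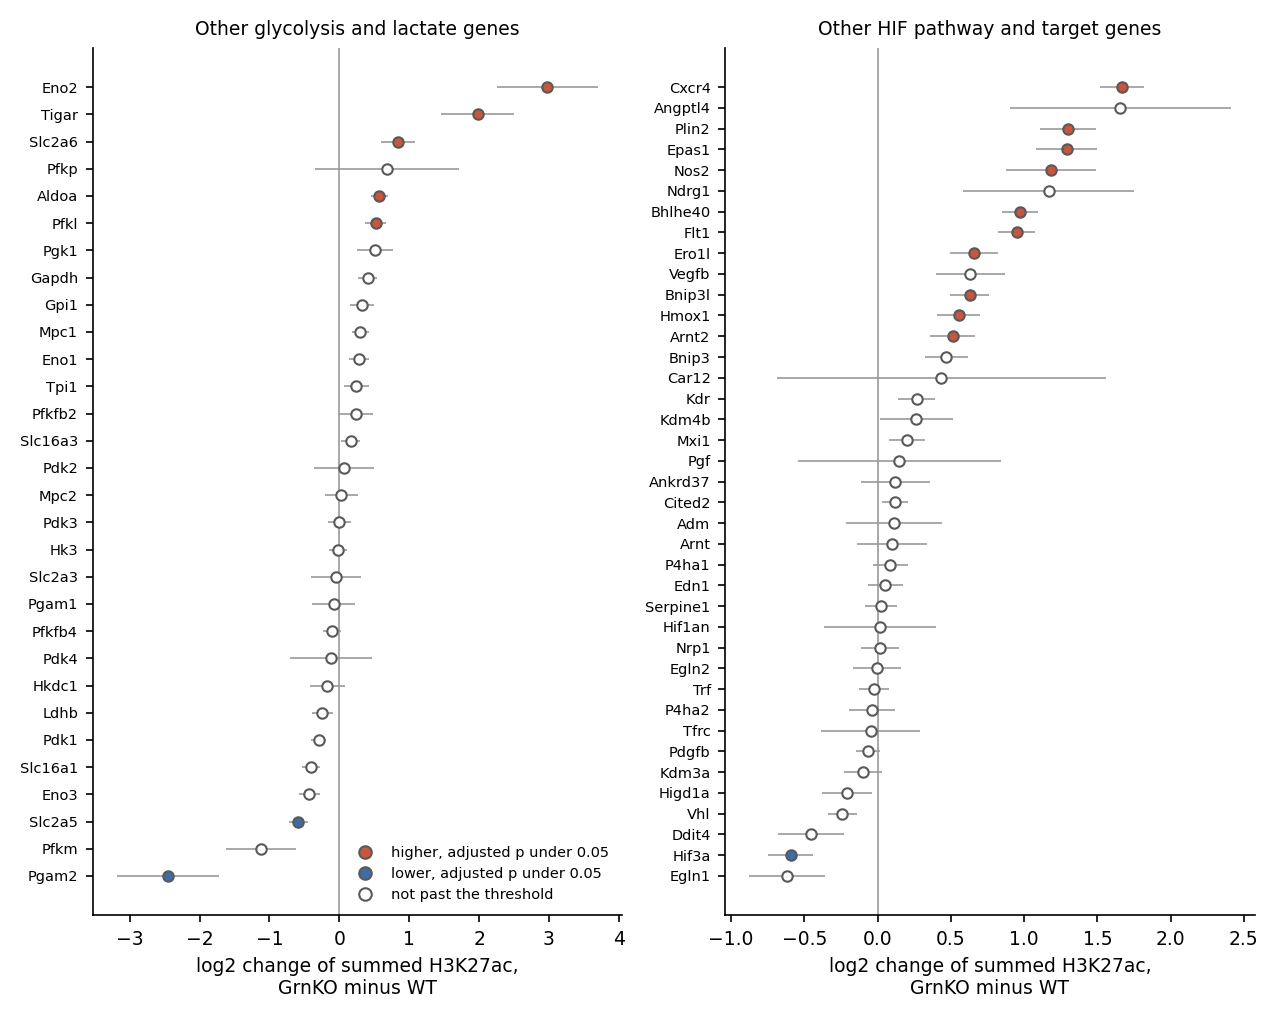
Log2 difference (GrnKO minus WT) of summed H3K27ac for tested genes of the glycolysis and HIF lists, with lines of 1 SE either side and filled points for an adjusted p under 0.05. In the glycolysis list 5 genes were higher and 3 lower, 1 of which is not drawn, and in the HIF list 10 were higher and 1 lower.

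Of 70 tested genes in both lists, Vegfb, Bhlhe40 and Aldoa had the pattern most like that of Hif1a over the 4 H3K27ac libraries. The measure was the root mean square difference of log2 sums, each centred on its own mean, at 0.097, 0.124 and 0.129. Vegfb, a growth factor of the vascular family, had a log2 difference of 0.63 and was not called (limma adjusted p = 0.0895).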

How the data were processed

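The deposited table gives a signal per region: the authors scaled the tags of each library to a total of 10000000, per the file headers. The regions, each 800 bp wide, come from reproducible ATAC-seq peaks that were merged into one list, going by the names in the deposited data. Bowtie2, HOMER and DESeq2 and the build mm10 are named in the submitters' processing notes, without versions or roles, and the handling of duplicate reads is not given in the sources used here. Multiplying by the library totals gave whole read ends, 2 per tag, for 100% of values within 0.005 scaled tags. Regions without a gene symbol were 0.131% of regions and held 0.00608% of tags, and they stayed out of gene sums.

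Regions, and separately sums per gene symbol, were kept by filterByExpr with a minimum of 10 tags. Values were divided by TMM factors computed on regions (0.825 and 1.04 in WT, 1.08 and 1.08 in GrnKO; edgeR 4.0.16), and log2(value + 1) was tested with limma 3.58.1 (lmFit, eBayes with trend; R 4.3.3). Genotype was the only term, p-values were two-sided and Benjamini-Hochberg adjusted over all regions or genes tested, and the threshold was 0.05. The log2(value + 1) scale understates the change of low regions. Inputs are shown as background, at library totals without TMM. The fits were checked on simulated tags. At a set log2 change of 1, limma recovered 11% of changed regions and 43% of changed genes. At a set log2 change of 2 it recovered 73% and 98%. A region or gene that was not called can thus still differ.

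The same comparisons were repeated without TMM, with a pseudocount of 5, without a filter and with a minimum of 30 tags, with edgeR's quasi-likelihood test and DESeq2 1.42.0 on the recovered tags, with a replicate block, without each library, on other region sets and with input subtracted. Replicates of a genotype differed by more than counting noise (chi-square per degree of freedom 5.54 in WT and 3.51 in GrnKO), so none was a copy of the other library. This does not test whether they came from separate pools. Replicates are pools of different mice, with 2 pools a genotype. In the limma fits, the spread between pools at each feature was drawn towards a trend over all features. The p-values thus do not rest on the pools of that feature alone. Same-numbered samples are different mice.

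Members and gene lists were chosen with earlier results of these data known. Named were all 9 members, for each member the region nearest its start, every region past the threshold and the region with the highest mean, up to 5 genes per list and direction with the smallest p, the 3 listed genes most like Hif1a, and Grn. The region sets, Prkch, Snapc1 and other features that this does not cover were picked with their values in view. Floors and chi-square values cover counting error only, since reads carried no molecular identifiers. A few listed genes are not reported here by name.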

Additional observations from a re-analysis of the deposited data

How the results depend on the processing

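Of 1090 values recomputed under an alternative, 909 kept their direction and side of the threshold or moved within a set limit. Another 90 moved beyond it, 70 lost a call, 2 gained one and 19 changed sign. The values mix counts with log2 differences, and the limit for counts was wide. A move from 7843 to 11391 called regions, with the replicate block, was within it. The Hif1a sum kept its call in every alternative with a test, with log2 differences from 0.51 to 1.04. Member regions called lower numbered 0 without TMM, 0 without a filter, 0 with edgeR on read ends and 2 with the replicate block, against 1. In the same order, 0.412%, 0.932%, 2.5% and 4.94% of all tested regions were lower, against 2.92%. The cause was not tested.

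Leaving out 1 library gave 8 to 28 member regions differing, 8 to 26 higher and 0 to 5 lower, and 2 to 6 member genes differing, all of them higher (2 to 6). It gave 2171 to 13596 regions and 1023 to 3524 genes differing in all, and 7 to 26 listed pathway genes. The low ends came without GrnKO replicate 1, and leaving out GrnKO replicate 2 gave 9 member regions. With only regions within 1000 bp of a start summed, fewer genes can be tested on less signal. Of the 9 member genes, 1 differed (11.1%), Hif1a, and it was higher. Of the pathway genes 5 of 60 differed (8.33%), and of all genes 581 of 11084 (5.24%). Without TMM the split of all called regions was 6583 higher and 333 lower, against 5488 and 2355, that of genes 1629 and 166, against 1322 and 904, and the median log2 difference of all genes moved from -0.05 to 0.18. Log2 differences reported here as negative then turned to 0.051 for the Hk2 region at 82797674, 0.045 for the Hk1 sum and 0.077 for the Hk2 sum. Near starts only, the sums were 0.22 for Hk1, 0.0091 for Hk2, -0.025 for Slc2a1 and -0.085 for Epas1, and Epas1 with input subtracted was -0.53.

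Across single libraries left out, results not called with all libraries that changed sign ranged from -0.11 to 0.50 for the Hk1 region at 62339861, -0.49 to 0.071 for the Ldha region at 46846653, -0.16 to 0.21 for the Slc2a1 region at 119108268, -0.26 to 1.56 for the Vegfa sum (called at the upper end, without WT replicate 2), -0.0020 to 0.24 for the Pfkfb3 region at 11501011, -1.09 to 0.32 for the Vegfa region at 46031553 and -0.49 to 0.16 for the Hk1 sum. The called regions of Ldha and Slc2a1 lost the call in 7 of 13 alternatives each.

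The deviations of same-numbered libraries correlated at 0.034 over 80728 regions, so they showed no clear pairing by replicate number. A low correlation cannot exclude handling shared by replicate number. With the replicate block, 26 member regions differed, 24 higher and 2 lower, with 11391 regions in all, and 4 member genes and 24 pathway genes differed, against 2841 of all 15380 genes (18.5%, and 14.5% without the block). The tags of Vegfa, Hk1 and Egln3 are few, so counting error is largest there, and the 2 pools a genotype limit all calls.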
